A study of Mus musculus with 2 samples.

Results

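Among corneal epithelial cells sorted for a cell cycle reporter, the 165 cells with the highest share of RNA from 6 gate genes are described here. The gate genes, grouped as genes of surface differentiation, were Psca, Asprv1, Muc4, Nccrp1, Krt6b and Ly6g6c. The 165 cells were the top 4% of 4125 corneal cells by the share of a cell's UMIs that came from these genes. UMIs are unique molecular identifiers, each standing for a captured RNA molecule. In 55 of the 165 cells Krt6b, a keratin also induced in wounded epithelia, was the only gate gene detected. A corneal cell was a barcode with 500 or more detected genes, under 20% mitochondrial UMIs, at least 5 UMIs of Krt12 and Krt15 together, and more than 0.8 of those from Krt12, the keratin of corneal epithelium. The other 3960 corneal cells served as the comparison. All cells came from CycB1-GFP mice, a line in which green fluorescent protein reports Cyclin B1, and only live GFP-positive cells of the peeled and trypsinised corneal epithelium were collected. The samples analysed formed 1 group of 2 replicates, so every cell compared had passed the same reporter sort. The labels give no age, sex or number of mice and do not say whether the replicates were separate animals, so p-values measure only the spread between these libraries, which may be technical. The libraries could not be matched to the labelled replicate numbers and are called library 1 and library 2.

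The corneal epithelium is a stratified, non-keratinised sheet. Its basal cells hold on to the basement membrane through integrins and hemidesmosomes and divide there, and daughter cells move up, leave the cell cycle and are finally shed into the tear film. Superficial cells seal the surface with tight junctions, coat it with membrane-bound mucins and express small surface proteins of the Ly6 family, to which Psca and Ly6g6c belong. Of the other gate genes, Muc4 encodes a membrane mucin, Asprv1 a protease of differentiating epidermis, Nccrp1 an F-box-related protein of stratified epithelia, and Krt6b a keratin that is induced in wounded and fast-renewing epithelia.

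The matrix held 6752 barcodes, of which 6188 passed the filters. Only 5 barcode sequences occurred in both libraries, and 0 of them belonged to the chosen cells. The chosen cells numbered 97 in library 1 (4.21% of its corneal cells, 95% exact binomial interval 3.43 to 5.11) and 68 in library 2 (3.73%, 2.91 to 4.71). Their median depth was 7711 and 6239 UMIs in libraries 1 and 2, against 5764 and 6376 in the other corneal cells, and their median mitochondrial share was 2.50 and 2.80% against 2.49 and 3.16%. Intervals here and below cover counting error only. Summed over cells, the chosen class held 731970 and 548172 UMIs, and the other corneal cells 13115979 and 10998561. The 12 immune markers examined were at 0 in the chosen cells, and the 8 keratocyte and stromal markers gave 1 and 2 UMIs. A gene at 0 in the chosen cells of both libraries may still have stood at up to 2.34 CPM there (UMIs per 1000000 UMIs of the class), the level of 3 UMIs.

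The gate genes chose the cells, so their values are a description. The chosen cells carried a median of 17 gate UMIs (range 1 to 430), which was 0.220% of their RNA at the median and 8.41% at most. At the threshold, the lowest chosen cell stood at 0.0875% and the highest cell left out at 0.0866%. The 10 cells just inside had a median of 6 gate UMIs among 5994.5 UMIs, and the 10 just outside had 7.5 among 9209. Cells on either side of the threshold thus carried similar numbers of gate molecules.

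Krt6b was the gate gene most often found, with a UMI in 164 of the 165 cells (99.4%) against 11.2% of the other corneal cells. Muc4 was found in 93 chosen cells (56.4%), Ly6g6c in 61 (37.0%), Nccrp1 in 54 (32.7%), Asprv1 in 51 (30.9%) and Psca in 43 (26.1%), against 0.101 to 1.62% of the other corneal cells. The set was not uniform. In 55 cells Krt6b was the sole gate gene detected, 36 carried 1 of the other 5 genes, and 31 cells had all 6. The libraries differed in this mixture. Krt6b-only cells made up 47 of 97 in library 1 (48.5%, 38.2 to 58.8) but 8 of 68 in library 2 (11.8%, 5.22 to 21.9), and cells with 3 or more of the other 5 genes numbered 13 and 36. The median was 14 gate UMIs per cell in library 1 and 42.5 in library 2. Of the 2063 cells that passed the filters but were not corneal by Krt12, 130 (6.30%, 5.29 to 7.44) reached the same gate share.

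**Figure D1:**
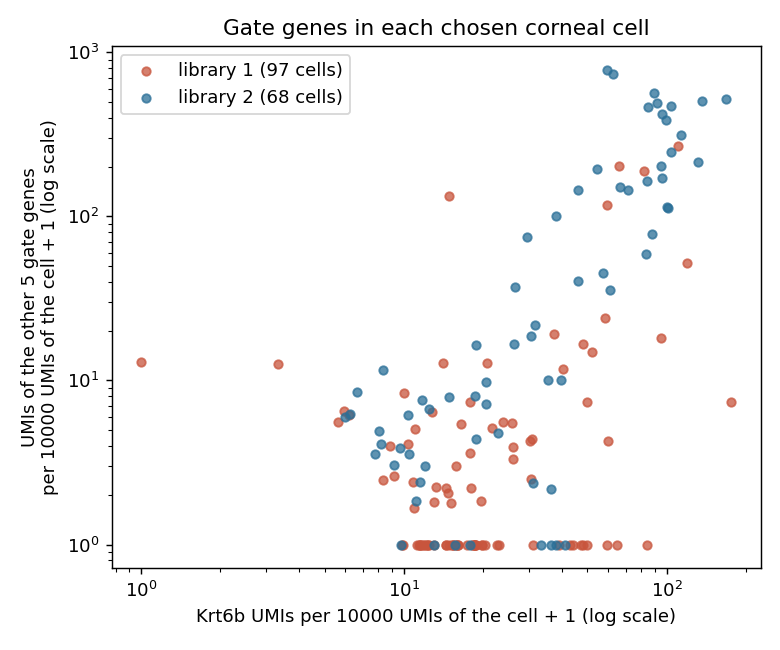
Each point is 1 of the 165 chosen cells, with Krt6b UMIs per 10000 UMIs of the cell plus 1 on the x axis and UMIs of the other 5 gate genes per 10000 plus 1 on the y axis, both on log scales and coloured by library. The 55 cells along the bottom edge carried Krt6b alone, and most of them (47) were from library 1.

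The label was checked on genes the choice did not use. For each gate gene in turn, cells were chosen again by the other 5, and the left-out gene was read from a fit on the new classes with edgeR's quasi-likelihood test and Benjamini-Hochberg adjustment over all genes. These genes had been grouped with earlier results of these data known, so the values are not independent support for the grouping. In the fits, levels are normalised CPM, that is, UMIs per 1000000 summed UMIs of a class after scaling by the fit. Psca stood at 252 and 2895 normalised CPM in the newly chosen cells of libraries 1 and 2, against 0.533 and 1.21 in the rest, with a log2 difference of 10.53 that passed at an adjusted p of 0.05, as did those of Nccrp1 (10.40), Asprv1 (9.11) and Muc4 (7.29). In these 4 fits 10, 10.3, 10.2 and 9.88% of all genes were called higher. The library 1 levels of Psca and Asprv1 rested on few cells. In the original choice, 8 cells of library 1 had a Psca UMI and 12 had an Asprv1 UMI. Of the 171 Psca UMIs there 119 came from 1 cell, and 2 cells gave 99 and 111 of the 237 Asprv1 UMIs. Krt6b and Ly6g6c did not pass, in fits that called 9.31 and 9.8% of all genes higher. Krt6b stood at 2107 and 3070 against 109 and 45.8 normalised CPM (log2 difference 5.16, SE 1.06, edgeR adjusted p = 0.363), and Ly6g6c at 81.2 and 619 against 3.05 and 2.77 (6.45, SE 1.40, adjusted p = 0.275). The chosen cells of both libraries were above the rest for all 6 genes.

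Hopx and Plac8, the label's remaining markers, were outside the gate. They too were grouped with earlier results of these data known, so their values are not independent support. Hopx (chr5:77086988-77115121, minus strand, GRCm38) encodes a small homeodomain protein that does not bind DNA itself and is found in differentiating epithelia. It stood at 179 and 744 normalised CPM in the chosen cells of libraries 1 and 2 and at 3.65 and 7.89 in the other corneal cells. The log2 difference was 6.15 (SE 0.25, edgeR adjusted p = 8.54e-16). Plac8 (chr5:100553725-100572245, minus strand) encodes a small cysteine-rich protein. It stood at 217 and 1271 against 16 and 39.1 normalised CPM, a log2 difference of 4.45 (SE 0.27, edgeR adjusted p = 1.28e-10; without the library term 4.75, adjusted p = 0.0589). Both genes were higher in library 2 in either class. Pax6, the ocular master regulator, did not pass and stood at 541 and 456 normalised CPM against 548 and 445 (log2 difference 0.01, adjusted p = 0.990).

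**Figure D2:**
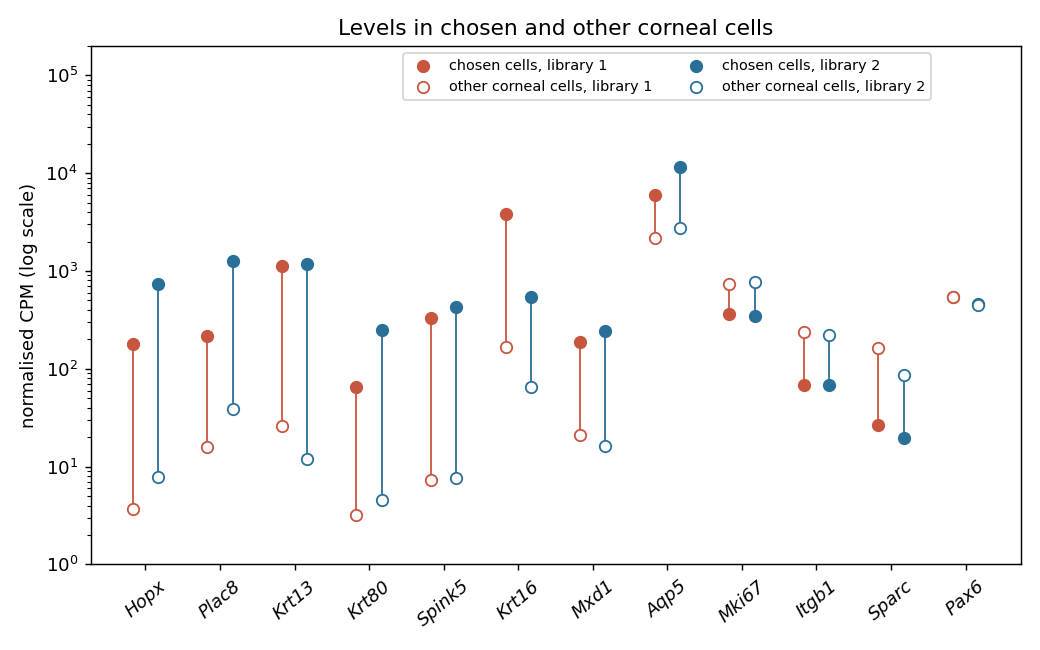
Normalised CPM on a log scale for 12 genes in the chosen cells (filled) and the other corneal cells (open) of each library, joined by a line. Hopx, Plac8, Krt13, Krt80, Spink5, Krt16, Mxd1 and Aqp5 were higher in the chosen cells of both libraries, Mki67, Itgb1 and Sparc were lower, and Pax6 lay between 445 and 548 in all 4 sums.

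Across the transcriptome, 1031 of 11070 genes tested (9.31%) were higher in the chosen cells and 558 (5.04%) were lower at an edgeR adjusted p of 0.05. The direction was the same in both libraries for 1026 and 558 of these. Differences of log2 1 or more in size were seen for 747 higher and 351 lower genes, and the median over all genes tested was -0.05. Each class was 1 sum per library, so the fit had 1 residual degree of freedom and drew its estimate of spread largely from the other genes. Without the library term 337 were called higher and 61 lower. Against other cells matched on total UMIs, 636 were called higher and 196 lower.

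Genes were ranked if their mean reached at least 50 normalised CPM in a class. Those with the largest differences upward were Krt78, Ifit1bl1, Akr1b7, Prss32, Hopx, Slc28a3, Krt13, 2310007B03Rik, Slc5a1 and Prss27, with log2 differences of 5.69 to 7.58. All 10 reached that level in the chosen cells alone, with means of at most 18.9 in the rest, so the filter itself favoured large upward differences. Krt78 encodes a keratin of differentiated mucosal and epidermal layers. It rested on 5 and 57 UMIs in the chosen cells against 3 and 3 in the rest, a ratio of 199 over both libraries (86.4 to 563), so nearly all of it came from library 2. Akr1b7, an aldose reductase family member, stood at 59.8 and 270 normalised CPM against 0.609 and 2.86. Slc5a1 (the sodium-glucose cotransporter SGLT1) stood at 31.4 and 90.8 against 0.609 and 1.39, and Slc28a3 (a concentrative nucleoside transporter) at 17.9 and 88.8 against 0.533 and 0.867. The genes furthest down were Wnt10a, Spon2, Sparc, Ctnnal1, Itga3, Ftl1, Antxr1, Ptn, Bcam and Slc6a6, with log2 differences of -2.49 to -1.91. Sparc, a secreted matrix protein, stood at 26.9 and 19.7 normalised CPM against 164 and 86.0. Wnt10a, a Wnt ligand, stood at 7.47 and 13.8 against 52.6 and 64.0. Without library 2 the upward differences were 3.45 for Krt78, 4.46 for Ifit1bl1, 4.28 for Prss32 and 3.56 for 2310007B03Rik. Akr1b7 and its relative Akr1b8, Ifit1bl1, Ftl1, Krt6a and Alox12e have close paralogs or pseudogenes between which reads may be split, and their values are uncertain for that reason.

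Genes of the surface layers were examined by lists. For comparison with this and every later list, 9.31% of all genes tested were higher and 5.04% lower. Of 12 tested genes of the surface and cornified envelope, the protein shell laid down under the membrane of terminally differentiating cells, 9 were higher and 0 lower (median log2 difference 2.37, against -0.05 over all genes). Tgm5, a transglutaminase, differed by 4.69, the small proline-rich envelope proteins Sprr1a and Sprr1b by 4.19 and 3.28, and the secreted protein Dmkn by 2.88. Sprr1a stood at 151 and 116 normalised CPM against 8.91 and 5.81. The list was far from complete in these cells. Of its 28 genes, 11 had 0 UMIs in the chosen cells, among them Flg, Sprr3, Cdsn and Rptn, while involucrin (Ivl) stood at 16.4 and 9.87 against 14.5 and 9.19 and did not pass (log2 difference 0.16, edgeR adjusted p = 0.872). The remaining 5 genes, Lor (loricrin), Cnfn, Crct1, Sprr2d and Sprr2h, had UMIs in the chosen cells but were too low to be tested.

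Of 9 tested mucin and glycocalyx genes, 6 were higher and 1 lower. The membrane mucins Muc20, Muc1 and Muc15 differed by 4.46, 3.87 and 3.36 on the log2 scale, and the mucin sialyltransferase St6galnac1 by 1.97. Muc1 differed by 2.43 without library 2. Muc15 stood at 91.2 and 142 normalised CPM against 8.22 and 14.7. Muc16, the large mucin of the mature ocular surface, had 0 UMIs in the chosen cells. The lower member was Lgals7, a galectin, at 303 and 182 against 410 and 349. Of the surface membrane proteins, 7 of 10 were higher and 0 lower, among them the adhesion molecule Ceacam1 (log2 difference 3.77), Cd24a (1.64) and the uroplakin-like Upk3bl (1.35). Upk3bl was already abundant in the rest, at 1919 and 4805 normalised CPM against 1006 and 1408.

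Of 12 tested genes of the Ly6/uPAR family outside the gate, 5 were higher and 0 lower. These were Ly6g6e (4.30), Lypd3 (1.72), Lynx1 (1.17, or 0.59 without library 2), Slurp1 (1.16) and Lypd2. Slurp1 encodes a secreted protein abundant in the cornea and stood at 1354 and 3556 normalised CPM against 950 and 1018 (SE 0.26, edgeR adjusted p = 0.00298). Its difference was 0.51 without library 2 and 1.80 without library 1, and in the cells with Krt6b alone its direction reversed (-0.61). Ly6d did not pass (3.62, SE 1.63, adjusted p = 0.482), at 357 and 17.8 against 13.3 and 9.27, which was a large difference in library 1 alone.

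Cell junction genes were higher as well. Of 12 desmosome genes 9 were higher and 0 lower, including Dsg1a (2.47), Dsc2 (2.04), Dsg3 (1.63) and Pkp1 (1.59). The desmosomal cadherin Dsc2 stood at 475 and 568 normalised CPM against 126 and 126. Of 15 tight junction genes 11 were higher and 0 lower, led by the claudins Cldn23 (5.22, or 3.30 without library 2), Cldn3 (3.80) and Cldn4 (3.00) and by occludin (Ocln, 3.80), all sealing proteins of the paracellular barrier. Cldn3 stood at 50.8 and 118 against 5.63 and 5.72. Of 8 connexins and aquaporins, 6 were higher and 1, the connexin 43 gene Gja1, was lower, at 181 and 96.7 against 285 and 224 (log2 difference -0.90). Aqp5, the water channel of corneal epithelium, was the most abundant of them, at 5960 and 11463 against 2178 and 2750 (1.76, SE 0.26, edgeR adjusted p = 1.46e-05).

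**Figure D3:**
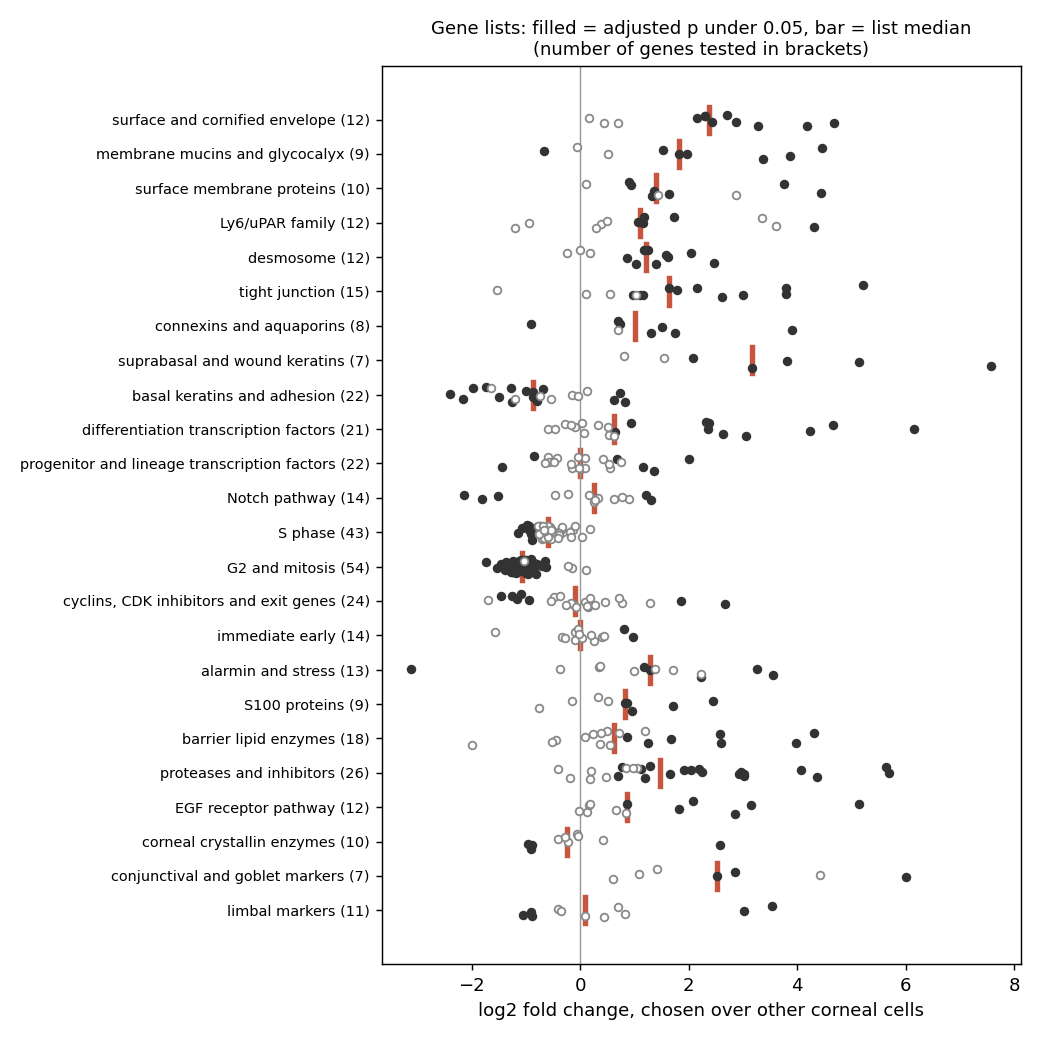
Each point is 1 tested gene of a list, placed by its log2 difference between the chosen and other corneal cells; filled points had an edgeR adjusted p under 0.05, and the bar is the list median. Medians ran from -1.07 for G2 and mitosis genes to 3.16 for suprabasal and wound keratins, with surface, mucin and junction lists above 1.

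Proteases and their inhibitors, which control shedding of surface cells, formed the list with the most higher genes, 18 of 26 with 0 lower (median 1.47). Spink5, an inhibitor of kallikrein proteases, stood at 330 and 426 normalised CPM against 7.38 and 7.71, a log2 difference of 5.63 (SE 0.22, edgeR adjusted p = 7.73e-16). The serine protease Prss27 differed by 5.69 and the clade B serpin Serpinb11 by 4.36. Klk11, a kallikrein, rested on 3 and 14 UMIs in the chosen cells (ratio 16.4, 8.05 to 32.9; log2 difference 1.98 without library 2). Of 18 barrier lipid genes 7 were higher and 0 lower, including the lipoxygenases Alox12 (4.30) and Alox12e (3.97, or 2.38 without library 2), the triglyceride enzyme Dgat2 (2.59) and the ceramide synthase Cers3 (2.58). Of its 28 genes, 10 had 0 UMIs in the chosen cells, among them Alox12b, Aloxe3 and Abca12 of the epidermal lipid barrier.

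Keratins outside the gate changed in different ways. Of 7 suprabasal and wound keratins 5 were higher and 0 lower, namely Krt78, Krt80, Krt16, Krt6a and Krt17. Krt80, a keratin of advanced differentiation, stood at 65.8 and 247 normalised CPM against 3.20 and 4.59 (5.15, SE 0.30, edgeR adjusted p = 1.70e-12). Krt16, an early keratin of wounded epithelium, showed the opposite balance between libraries, at 3805 and 549 against 169 and 65.2 (3.82, SE 0.30, adjusted p = 1.35e-08). Its call was lost when the gate was used without Krt6b (1.72, adjusted p = 0.120) and when cells with Krt4, Krt13 or Krt19 UMIs were left out (3.24, adjusted p = 0.870). Krt6a stood at 8153 and 6078 against 1345 and 458, but Krt6a and the gate gene Krt6b are near-identical, and reads of the pair may be split.

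Mucosal keratins, which are markers of conjunctiva, moved with the surface genes. Krt13 stood at 1134 and 1166 normalised CPM against 25.7 and 12 (6.00, SE 0.27, edgeR adjusted p = 1.56e-14). Krt7 and Krt4 were higher by 2.85 and 2.52, and Krt19 did not pass (4.42, adjusted p = 0.298), at 124 and 201 against 13.7 and 3.03. Of the 14 conjunctival and goblet markers, 7 were tested, with 3 higher and 0 lower, and their summed level was 1320 and 1438 CPM in the chosen cells against 76.0 and 78.1. Krt13 alone held most of this sum, with 759 of 941 UMIs in the chosen cells of library 1 and 591 of 748 in library 2. Krt8, Krt18 and Agr2 did not pass. The goblet cell genes Muc5ac, Muc5b, Spdef, Tff3, Foxa3 and Gcnt3 were at 0. When cells with a UMI of Krt4, Krt13 or Krt19 were left out of both classes, 38 and 23 chosen cells remained, and 336 genes were called higher and 236 lower, of which 329 and 211 were among the original calls. Hopx then differed by 6.03 and Plac8 by 4.08, and both passed.

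Of 22 basal keratin and adhesion genes 12 were lower, 7 did not pass and 3 (Krt5, Cd44 and Sdc1) were higher, with a median of -0.87. The lower genes included several of attachment to the basement membrane, with the integrins Itga3 (-2.15), Itgb1 (-1.74) and Itgb4 (-1.26), the laminin receptor Bcam (-1.98), the hemidesmosome collagen Col17a1 (-0.88) and the laminin-332 chains Lama3 and Lamb3. Itgb1 stood at 68.8 and 69.1 normalised CPM against 237 and 222. Itga2 rested on 2 and 3 UMIs in the chosen cells (ratio 0.172, 0.0557 to 0.404). The summed list went the other way from its median, with log2 ratios of 0.53 and 0.05 in libraries 1 and 2, and Krt5 and Krt14 held most of its UMIs.

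Krt14, the basal keratin of stratified epithelia, went in opposite directions in the libraries. It stood at 13196 against 6338 normalised CPM in library 1 and at 1843 against 3293 in library 2, so the chosen cells were above the rest in the first and below it in the other (log2 difference 0.12, SE 0.36, edgeR adjusted p = 0.887). With the gate used without Krt6b it was lower (-0.44, adjusted p = 0.0141). Its partner Krt5 stood at 8117 and 9679 against 5216 and 5495 and passed narrowly (0.73, adjusted p = 0.0492). Krt5 lost this call under 9 other choices of cells, count filter or fit, with edgeR adjusted p of 0.0502 to 0.873.

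Transcription factors known to drive epithelial differentiation were higher in 10 of 21 cases (47.6%) and lower in 0, against 9.31 and 5.04% of all genes tested. Besides Hopx these included Elf5 (4.65), Prdm1 (4.23), Grhl3 (3.06), Elf3 (2.63), Grhl1 (2.37), Zfp750 (2.35) and Ovol1 (2.33). Elf3, an ETS factor of simple and stratified epithelia, stood at 326 and 549 normalised CPM against 74.3 and 62.7. Zfp750, a factor required for epidermal differentiation, stood at 209 and 148 against 44.9 and 26.0. Klf4, a barrier factor that is already abundant in corneal cells, passed narrowly, at 1284 and 1368 against 994 and 732 (0.63, edgeR adjusted p = 0.0458; 0.37 without library 2). Klf4 lost this call under 8 other choices of cells, count filter, tool or fit, with adjusted p of 0.0511 to 0.990.

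Progenitor and lineage factors showed no common direction, with 4 of 22 higher (18.2%), 2 lower (9.09%) and a median of -0.01. For comparison, 9.31% of all genes tested were higher and 5.04% lower. Klf5 (1.15), Id1 (1.36), Barx2 (2.01) and Foxc1 (0.68) were higher, and Id3 (-0.86) and Id4 (-1.44) were lower. Sox9 stood at 97.1 and 53.3 normalised CPM against 95.1 and 70.7 (-0.15, SE 0.22, edgeR adjusted p = 0.738). Trp63, the master regulator of stratified epithelia, stood at 88.2 and 148 against 160 and 188 and missed the threshold (-0.59, SE 0.21, adjusted p = 0.0559). Of 14 Notch pathway genes 2 were higher (14.3%) and 3 lower (21.4%). The lower genes were the ligands Jag2 (-1.81, or -2.73 without library 2) and Dll1 (-1.51, or -0.99 without library 1) and the glycosyltransferase Lfng, and the higher genes were the receptor Notch3 (1.21) and the Notch target Nrarp (1.30). Lfng rested on 0 and 3 UMIs in the chosen cells (ratio 0.205, 0.0420 to 0.605).

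Promoters of 4 higher genes that share a sequence motif are shown. Sprr1a, Sprr1b, Serpinb11 and Prdm1 were picked for holding TGANTCA, the core of AP-1 sites, in the stretch before their RefSeq start, and for the size of their difference. Each line gives the 150 bases before the RefSeq start, 5′ to 3′ on the gene's strand (GRCm38.p6), with TGANTCA in capitals. Serpinb11 lies at chr1:107362164-107362313 (plus strand), Prdm1 at chr10:44458749-44458898 (minus), Sprr1a at chr3:92485882-92486031 (minus) and Sprr1b at chr3:92438780-92438929 (minus). For Serpinb11 and Prdm1 the RefSeq start lies inside the gene as GENCODE M21 annotates it, and which start these cells use was not measured.
Serpinb11: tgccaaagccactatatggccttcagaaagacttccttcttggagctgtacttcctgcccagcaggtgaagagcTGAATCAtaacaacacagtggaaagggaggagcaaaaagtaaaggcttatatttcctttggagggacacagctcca
Prdm1: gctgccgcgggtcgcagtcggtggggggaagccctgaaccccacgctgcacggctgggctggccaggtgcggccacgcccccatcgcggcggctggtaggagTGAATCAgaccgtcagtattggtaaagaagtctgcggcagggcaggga
Sprr1a: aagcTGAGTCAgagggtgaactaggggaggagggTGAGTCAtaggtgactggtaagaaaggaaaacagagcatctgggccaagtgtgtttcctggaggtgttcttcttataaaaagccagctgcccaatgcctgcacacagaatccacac
Sprr1b: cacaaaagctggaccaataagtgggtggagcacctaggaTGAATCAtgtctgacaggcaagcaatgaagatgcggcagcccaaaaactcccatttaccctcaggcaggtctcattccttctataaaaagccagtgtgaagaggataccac
The match begins 76 bases before the start in Serpinb11, 48 in Prdm1 and 111 in Sprr1b, and Sprr1a has 2, at 146 and 116. Searched on both strands, TGANTCA was present in the 250 bases before the start in 6.75% of all 32851 RefSeq promoters. Counted by gene, with any start, it was present in 7.82% of all 27025 genes. It was present in 10 of the 52 named higher genes with an entry, so most of those genes lacked it. Only 78.1% of the genes tested had an entry, so the motif could not be checked in all called genes, and no share among them is given. The named genes were also picked by list and size of difference, so these figures are given without comparison. A match describes the letters and is not evidence of a bound site. Of 14 AP-1 subunits and other immediate early genes, 2 (14.3%) were higher and 0 lower, against 9.31 and 5.04% of all genes tested. The higher genes were Fosl2 (0.97, or 0.59 without library 2) and Zfp36 (0.81).

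EGF receptor ligands, which drive renewal and repair of corneal epithelium, were examined with their receptors. Of 12 pathway genes 6 were higher (50%) and 0 lower, against 9.31 and 5.04% of all genes tested. Of these 6 genes 5 were ligands, while the ligands Epgn and Egf did not pass. Areg stood at 85.2 and 59.2 normalised CPM against 11.5 and 8.49 (2.85, SE 0.28, edgeR adjusted p = 2.23e-08). Btc (3.15), Tgfa (2.08) and Hbegf (1.82) were also higher, and Ereg rested on 2 and 15 UMIs (ratio 36.4, 15.3 to 92.6). Without library 2, Ereg differed by 1.99 and Btc by 1.89. Egfr itself stood at 88.2 and 103 against 81.1 and 90.0 and did not pass (0.15, adjusted p = 0.716).

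Of 13 alarmin and stress genes 5 were higher (38.5%) and 1 lower (7.69%), against 9.31 and 5.04% of all genes tested. The cytokines Il18 (3.55) and Il1a (3.27) and the glutathione transferase Gsta4 (2.23) were higher, and Gsta4 reached 5038 and 8099 normalised CPM against 1294 and 1423. The lower gene was Lcn2, with 1 and 1 UMIs in the chosen cells (ratio 0.107, 0.0129 to 0.389; log2 difference -1.90 without library 1). S100a9 differed by library, at 545 against 204 in library 1 and 15.8 against 13.1 in library 2. Of 9 S100 genes 5 were higher, led by S100a3 (2.45) and S100a14 (1.71).

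Among the enzymes that accumulate as corneal crystallins, 1 of 10 was higher and 3 were lower, where 9.31 and 5.04% of all genes tested were. Gsto1, another glutathione transferase, was higher, at 4451 and 8235 normalised CPM against 969 and 1053 (2.58, SE 0.26, edgeR adjusted p = 3.01e-08). Tkt, the transketolase that marks corneal epithelium, was lower, at 3176 and 4612 against 6262 and 8313 (-0.91, adjusted p = 0.00965). Aldh3a1, the main crystallin of mouse cornea, stood at 5555 and 8156 against 7563 and 10680 and did not pass. Of 11 limbal markers 2 were higher and 3 lower. The interferon-inducible membrane protein Ifitm1 was the more abundant, at 2118 and 3163 against 278 and 181 (3.53). Igfbp3 rested on library 1 alone, with 21 and 0 UMIs in the chosen cells, and its direction depended on the choice of cells.

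Proliferation RNA was lower in the chosen cells although all had passed the reporter sort. Of 54 G2 and mitosis genes 50 were lower (92.6%) and 0 higher (median -1.07), and of 43 S phase genes 10 were lower (23.3%) and 0 higher (median -0.59). Over all genes tested, 5.04% were lower and 9.31% higher. The summed G2 and mitosis list stood at 7826 and 6227 CPM against 13756 and 14645, and the S phase list at 2596 and 1494 against 3418 and 3716. The difference was larger in library 2 for both lists, with log2 ratios of -0.81 and -1.23 for G2 and mitosis and -0.40 and -1.31 for S phase. Mki67, the proliferation antigen, stood at 368 and 343 normalised CPM against 737 and 771 (-1.08, SE 0.20, edgeR adjusted p = 0.000341). Ccnb1, the cyclin of the reporter itself, stood at 85.2 and 55.3 against 177 and 158 (-1.25, SE 0.22, adjusted p = 0.000193), and Top2a was lower too (-1.07, or -0.69 without library 2).

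Of 24 cyclins, CDK inhibitors and exit genes 2 were higher (8.33%) and 5 lower (20.8%), against 9.31 and 5.04% of all genes tested. The higher genes were the CDK inhibitors Cdkn1a (1.86) and Cdkn2b (2.67), which restrain entry into S phase. CDK inhibitors had no common direction, since Cdkn2c and Cdkn2d were lower and Cdkn1b, Cdkn1c and Cdkn2a did not pass. Cdkn1a stood at 218 and 330 normalised CPM against 90.6 and 60.1. Ccnd2, a G1 cyclin, was lower, at 17.9 and 96.7 against 83.3 and 200 (-1.46; -2.19 without library 2).

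Depth was equalised by drawing 2000 UMIs from each cell, which left 90 and 62 chosen cells, with 7 and 6 too shallow, and 1949 and 1560 others. The chosen cells then had a median of 20.5 and 6.5 S, G2 and mitosis UMIs, against 34 and 36 in the others. Cells with a Mki67 UMI made up 36.7% (26.8 to 47.5) and 29.0% (18.2 to 41.9) of the chosen cells against 69.8 and 71.0% of the others, and without thinning 61.9 and 38.2% against 87.6 and 89.4%. Of the 152 thinned cells, 87 (57.2%) had fewer than 19 such UMIs, as did 8.75% of the others, and 11 (7.24%) had 35 or more, as did 50.9% of the others. Cells with few and with many such UMIs were thus both present among the chosen cells. No cell class known to lack these transcripts was in the sort, so the level given by free RNA was not measured.

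**Figure D4:**
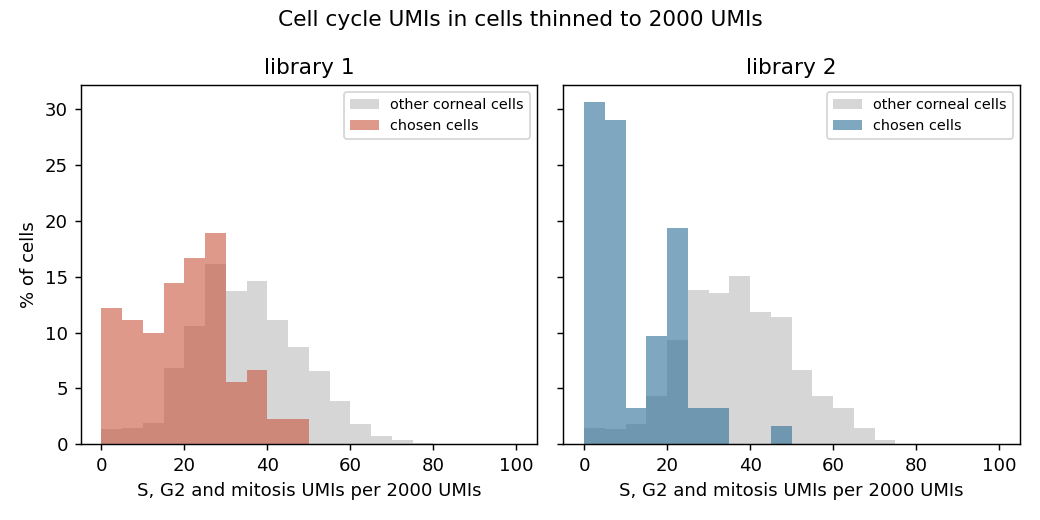
Share of cells by their number of S, G2 and mitosis UMIs after thinning to 2000 UMIs, for the chosen cells (coloured) and the other corneal cells (grey), with 1 panel per library. The median of the chosen cells was 20.5 in library 1 and 6.5 in library 2, against 34 and 36 in the others.

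Levels along the gate share were graded. From cells with no gate UMI, through cells with some, to the top 4 to 8%, the top 2 to 4% and the top 2%, Hopx ran 1.64, 4.80, 31.8, 69.5 and 365 CPM in library 1. In library 2 it ran 4.26, 14.8, 63.4, 224 and 977 CPM. Cells between 4 and 8%, outside the chosen set, thus already stood above cells without gate RNA. Mki67 ran 785, 644, 500, 417 and 201 CPM in library 1 and 856, 746, 474, 534 and 234 in library 2. Mxd1, an antagonist of Myc that was picked outside the naming rule after its values were seen, ran from 17.5 to 310 CPM in library 1 and from 12.4 to 289 in library 2. Krt14 ran 5630, 9394, 10572, 10948 and 15241 CPM in library 1. In library 2 it had no steady course, at 3448, 4095, 3208, 1321 and 2035 CPM.

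**Figure D5:**
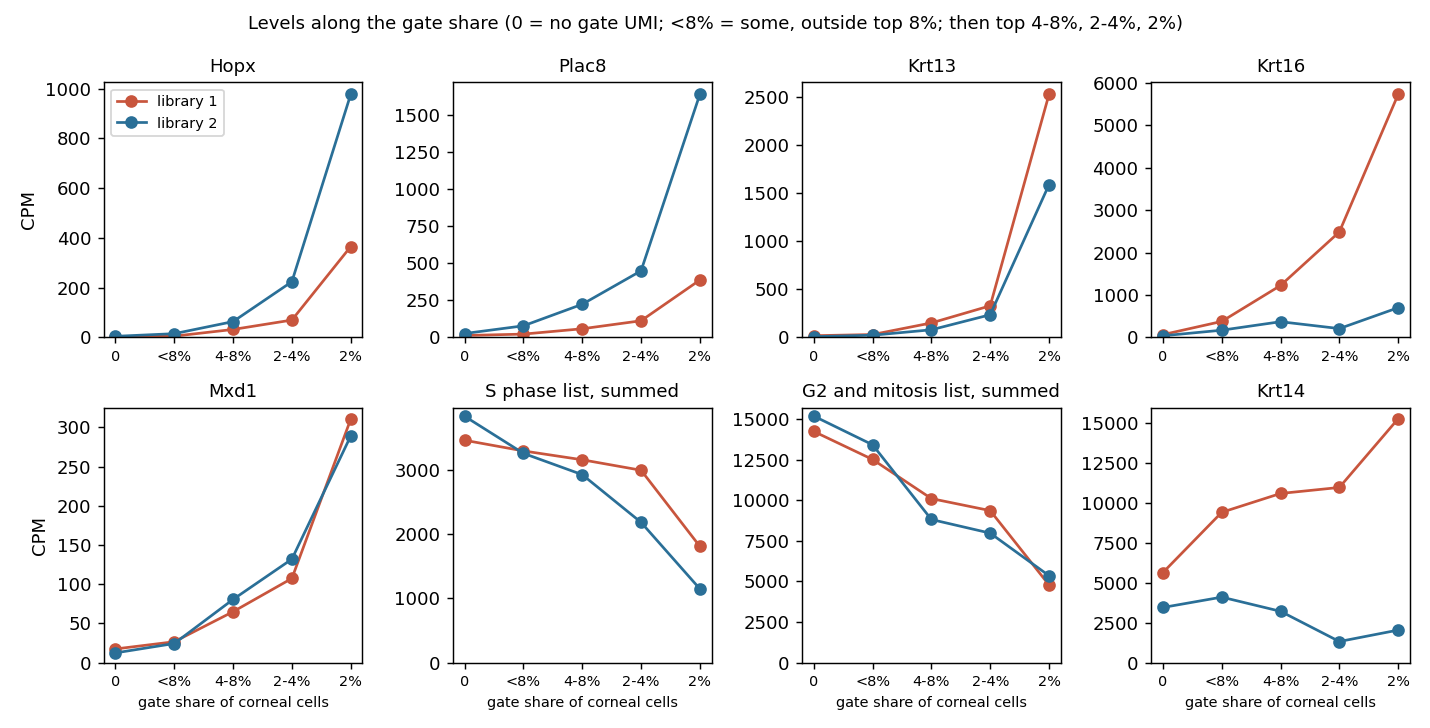
CPM of 6 genes and 2 summed lists in 5 groups of corneal cells ordered by gate share on the x axis, 1 line per library. Hopx increased in each step of both libraries, from 1.64 to 365 CPM and from 4.26 to 977 CPM, while Krt14 ended above its first value in library 1 and below it in library 2.

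The Krt6b-only cells and the chosen cells with another gate gene were compared after these values were seen, as a description without a test. Hopx stood at 29.9 and 121 CPM in the Krt6b-only cells of libraries 1 and 2 and at 290 and 789 in those with another gate gene, both above the 3.71 and 8.42 of the other corneal cells. Krt13 followed the same order, at 215 and 121 against 1813 and 1244, as did Mal, a protein of apical membrane sorting named here after its values were seen, at 940 and 1768 against 2595 and 8000. Krt16 and Krt14 went the other way. Krt16 stood at 4609 and 2250 in the Krt6b-only cells against 2655 and 353, and Krt14 at 17006 and 4621 against 8307 and 1497. Spink5 was high in both kinds of cell, at 329 and 723 against 293 and 383. The G2 and mitosis sum was 8458 and 6470 against 7269 and 6202, below the other corneal cells in each. Tested separately against the other corneal cells, the Krt6b-only cells gave 150 higher and 57 lower genes, and the cells with another gate gene gave 1230 and 911. These fits rested on 47 and 8 cells against 50 and 60 in libraries 1 and 2, so their counts of calls cannot be compared. Library 2 held 8 Krt6b-only cells, and its values for them rest on few UMIs.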

How the data were processed

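Single-cell RNA of sorted corneal epithelium was measured with 10x Genomics 3′ v3 chemistry, per the labels' protocols. The authors deposited 1 matrix of whole-number UMI counts for 31053 genes, with version 3.1.0 in the file header. Cell Ranger 3.1.0, Seurat 5.0.0 and the builds GRCm38 and mm10 are named in the submitters' processing notes. Whether depth was equalised between libraries is not given in the sources used here. The barcode suffix was taken as the library. The members and lists were chosen with earlier results of these data known.

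Counts were summed per library and class (4 sums). The 6 gate genes, Krt12 and Krt15 were left out before library sizes were computed. edgeR 4.0.16 in R 4.3.3 was used with low-count filtering, TMM factors (0.940 to 1.07), a library term and a robust quasi-likelihood fit, with Benjamini-Hochberg adjusted p of 0.05 over the 11070 genes tested. SE was derived from the log2 difference and its F statistic. CPM is per 1000000 UMIs of the class, and normalised CPM uses the fit's library sizes. The sums of UMIs in the fit were 711642 and 519078 for the chosen cells and 12902046 and 10784611 for the others. On simulated data 68.5% of 200 genes changed by log2 1 and 97.5% of 200 changed by log2 2 were recovered, with 14 calls among unchanged genes of 11041 tested. The simulation gave every gene the same spread and the same change in both libraries. Its changed genes were drawn from those with enough expected UMIs. These rates may thus not hold for real genes that differed between libraries or rested on few UMIs. Scrublet (scanpy 1.11.5) called 5 of 6188 cells (0.0808%), too few to be taken as having worked, so no doublets were removed. Its median score was 0.0310 and 0.0411 in the chosen cells and 0.0406 and 0.0366 in the others.

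Named genes were the 10 largest differences each way that shared a sign between libraries and reached at least 50 CPM in a class, up to 4 called members of each of 28 lists, members without a call as examples of a role, and a fixed set with Hopx, Plac8, Ccnb1, Mki67, Top2a, Krt5, Krt14, Sox9, Klf4, Pax6 and Trp63. Further members of the lists were named after their values were seen. The melanocyte list (1 gene tested, 4 and 2 UMIs in the chosen cells) and the endothelial and neural list (1 tested, 0 and 1 UMIs) had 0 calls by edgeR. Gene positions are from GENCODE M21 (GRCm38). Alternatives varied the gate, cell filters, depth matching, normalisation, the tool (DESeq2 1.42.0), the library term and each library left out. Of 511 listed symbols, 508 were in the matrix.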

Additional observations from a re-analysis of the deposited data

How the results depend on the processing

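The count of 1031 higher genes was 636 against other cells matched on total UMIs, 598 with DESeq2, 337 with no replicate block (no library term), 150 with the Krt6b-only cells and 336 without cells that had a Krt4, Krt13 or Krt19 UMI. The count of 558 lower genes was 196, 149, 61, 57 and 236 under those settings, 346 when cells were gated after thinning to 2000 UMIs, and 911 for cells with another gate gene. The splits by gate gene and by mucosal keratin were added after the data were seen and used fewer chosen cells. Plac8 missed the threshold with no replicate block (4.75, edgeR adjusted p = 0.0589), and Hopx passed in every setting tested. The 2 sums of a library come from the same sample, which is why the library term is in the fit. Of the gate genes read when left out, Krt6b passed in the top 2% (5.72), with DESeq2 (5.18) and with no replicate block (5.06). Ly6g6c passed in the top 2% (6.86), in cells of at least 3000 UMIs (6.40), with DESeq2 (6.29) and with no replicate block (6.88). Leaving out each library in turn gave values without a test of 7.94 to 10.73 for Psca, 7.49 to 9.61 for Asprv1 and 7.73 to 9.35 for Nccrp1, the lowest without library 2 in each case, and -0.76 to 3.08 for Igfbp3. The G2 and mitosis sum was -1.48 in the top 2%, against -1.02. The share chosen was 1.56 and 2.53% in libraries 1 and 2 for the top 2%, 8.51 and 7.36% for the top 8%, and 3.30 and 4.89% for the gate without Krt6b.

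Among 113 other named genes, 1443 of 1572 planned values kept direction and call, 115 lost the call, 6 gained it and 8 reversed. Of 318 added values 232 kept both, 79 lost the call, 2 gained it and 5 reversed. With a library left out, 187 of 226 values moved by at most the standard deviation of the 2 library values, and 38 by more. Krt78, for example, was at 3.45 and Ereg at 1.99 without library 2, against 7.58 and 5.14. The fit's value often lies between the libraries, so a small move by this measure does not show that they agree. Here only genes with a call could count as reversed, and 1 (Igfbp3) did. Of genes without a call, Krt14 changed sign without library 1 (-0.84), and Sox9 (0.030) and Pax6 (-0.017) did without library 2. Most losses came with no replicate block (53 genes) and the Krt6b-only cells (47). Reversals were Slurp1 (-0.61) and Zfp36 (-0.24) in the Krt6b-only cells, and Igfbp3 in the top 2% (-0.21), without Krt6b (-0.22) and at a Krt12 share above 0.9 (-0.080). Krt14 reversed without Krt6b (-0.44), with another gate gene (-0.31) and without mucosal keratin cells (-0.29). Sox9 reversed without Krt6b (0.11). Pax6 reversed in the top 2% (-0.15), the top 8% (-0.018), without the count filter (-0.047) and in the Krt6b-only cells (-0.67). The cause was not tested. A single library allows no test of counts.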
